A study of Mus musculus with 12 samples.

Results

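The Akr1c genes encode aldo-keto reductases of 1 subfamily, which lie side by side on mouse chromosome 13. All 8 genes sought by symbol (Akr1c6, Akr1c12, Akr1c13, Akr1c14, Akr1c18, Akr1c19, Akr1c20 and Akr1c21) were found, each with exactly 1 probe set, among the 21212 probe sets measured. Liver RNA came from 12 mice, 1 array per mouse, in 4 groups of 3: KK females, KK males, C57BL/6J females and C57BL/6J males. KK mice are an inbred line used as a model of obesity-linked diabetes; the substrain is given as KK/HIJ in one label and KK/J in another. C57BL/6J is the common reference strain. No transgene, drug or special diet was part of the design: all mice were 8 weeks old and on chow, had been caged alone over 3 days, and went without food over the last 4 hours before the liver was taken. Nothing in the labels says whether the mice of a group were littermates.

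Aldo-keto reductases use NADPH to turn aldehydes and ketones into alcohols, and many of them also run the reverse oxidation. Those of the 1C subfamily act on steroid hormones, prostaglandins, bile acid precursors and foreign carbonyl compounds, so in liver they belong both to steroid clearance and to detoxification. Akr1c18 is the 20alpha-hydroxysteroid dehydrogenase that converts progesterone to a weakly active metabolite and is best known from the ovary. Akr1c6 (a 17beta-hydroxysteroid dehydrogenase) and Akr1c14 (a 3alpha-hydroxysteroid dehydrogenase) are known as abundant liver enzymes, while Akr1c21 is known mainly from kidney.

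Values are log2 expression values, so that a difference of 1 is a doubling. The array medians lay between 5.9 and 6.03. Hepatocyte markers (8 genes, Alb and Apoa1 among them) had a mean value of 13.03 to 13.15 in every array, so the liver label holds; of the 8, Apoa1 was called lower in KK over both sexes (-0.34) and in females (-0.47), and Tat higher in KK females (0.60). The sex labels held as well: Xist differed by -5.96 in males of C57BL/6J and by -6.39 in KK males, while the Y-linked genes Eif2s3y (4.10 and 3.78), Kdm5d (1.79 and 1.82) and Uty (3.65 and 3.31) were higher, all called. As a guide to the signal of a transcript that is absent, the 3 measured Y-linked genes read 3.79 to 4.66 in the 6 female arrays. A probe set was called different at an adjusted p under 0.05 in a limma fit over all probe sets. SE is that of the fit, and SD is over the 3 mice of a group.

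In RefSeq (GRCm38.p6) the 8 genes span 537.6 kb of chromosome 13, from base 4048991 to base 4586543, in the order Akr1c14, Akr1c18, Akr1c13, Akr1c19, Akr1c12, Akr1c6, Akr1c20 and Akr1c21. They are the 8 protein-coding genes among the 14 annotated genes of that span; the other 6 are pseudogenes, long non-coding RNAs and a tRNA, none of them measured. The widest gap, of 154911 bases, separates Akr1c12 from Akr1c6. The sequences before the transcript starts show how alike some of these genes are. RefSeq windows were found for 7 of the 8 genes (not Akr1c20), and the 250 bases before the transcript start of each were compared in 21 pairs. In 4 genes that start lies inside the annotated gene, so that 250 bases of the window of Akr1c14, 237 of Akr1c19, 32 of Akr1c6 and 19 of Akr1c13 fall within it. Akr1c12 and Akr1c13 were identical at 235 of 254 alignment columns (92.5%). Akr1c19 was 60.3% identical to Akr1c13 and 59.0% to Akr1c12, and the other 18 pairs were 48.0% to 55.9% identical.

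The windows of Akr1c13, Akr1c12 and Akr1c18 are printed because the results below turn on these members. Each is read 5′ to 3′ on the gene's own strand and ends at the base before the transcript start. Capitals mark CCATTAG, the run of 7 bases with at least 2 copies in each of the windows of Akr1c12, Akr1c13 and Akr1c19, a choice made after these sequences were read. Its 7 copies over the 3 windows were matched in number by those of the overlapping run CATTAGC, which stood once in that of Akr1c19.
Akr1c13, chr13:4190937-4191186, plus strand: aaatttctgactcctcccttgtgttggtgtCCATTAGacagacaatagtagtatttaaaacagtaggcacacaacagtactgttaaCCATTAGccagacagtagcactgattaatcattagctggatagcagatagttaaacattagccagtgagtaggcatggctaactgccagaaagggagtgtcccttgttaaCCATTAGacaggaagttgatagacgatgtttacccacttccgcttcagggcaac
Akr1c12, chr13:4279400-4279649, minus strand: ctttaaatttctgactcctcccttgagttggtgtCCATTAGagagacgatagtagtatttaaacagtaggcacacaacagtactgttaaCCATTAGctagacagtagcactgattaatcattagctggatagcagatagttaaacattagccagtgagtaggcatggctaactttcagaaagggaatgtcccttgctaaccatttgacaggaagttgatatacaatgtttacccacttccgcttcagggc
Akr1c18, chr13:4150647-4150896, minus strand: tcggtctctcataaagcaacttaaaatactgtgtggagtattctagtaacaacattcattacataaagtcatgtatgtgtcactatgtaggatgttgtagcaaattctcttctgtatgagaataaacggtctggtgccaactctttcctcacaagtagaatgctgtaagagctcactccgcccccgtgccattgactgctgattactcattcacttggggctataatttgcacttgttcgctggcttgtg

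CCATTAG stood 3 times on the forward strand of the Akr1c13 window and 2 times each in those of Akr1c12 and Akr1c19. It was found on neither strand in the windows of Akr1c18, Akr1c14 and Akr1c6, and once on the reverse strand in that of Akr1c21. Of all 32851 promoter windows of the same length, 1.7% held it on either strand. The 1 window that held it 3 or more times on the forward strand was that of Akr1c13 itself. The run was chosen from the Akr1c12, Akr1c13 and Akr1c19 windows, which are among those counted, so these shares are not a test of it. A search of both strands for 5 motifs found few matches. The TATA box TATAAA (12.4% of all windows) was in that of Akr1c6, 164 bases before the start. CCAAT (33.8% of windows) was read on the reverse strand for Akr1c14, Akr1c19 and Akr1c6, and the STAT element TTCNNNGAA (7.0%) once, for Akr1c19. The HNF1 element GTTAAT (6.4%) was found for Akr1c21 on the reverse strand, and the antioxidant response element core TGACNNNGC (10.2%) in none of the 7 windows. The only forward matches were TATAAA for Akr1c6, whose window lacks CCATTAG, and TTCNNNGAA for Akr1c19, which did not overlap CCATTAG. Reverse matches were not compared with it. Such matches describe letters and are not evidence of binding.

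The first comparison asks how the cluster differs between the strains. Over both sexes 5 of the 8 genes were called: Akr1c18 rose in KK, and Akr1c12, Akr1c19, Akr1c20 and Akr1c6 fell. Among all probe sets 11.7% were called, 5.42% higher and 6.31% lower in KK. Akr1c18 and Akr1c12 stood far apart from the rest of the cluster, at 4.92 and -2.61 log2. The median size of the strain difference was 0.31 log2 over the 8 members and 0.07 over all probe sets.

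**Figure D1:**
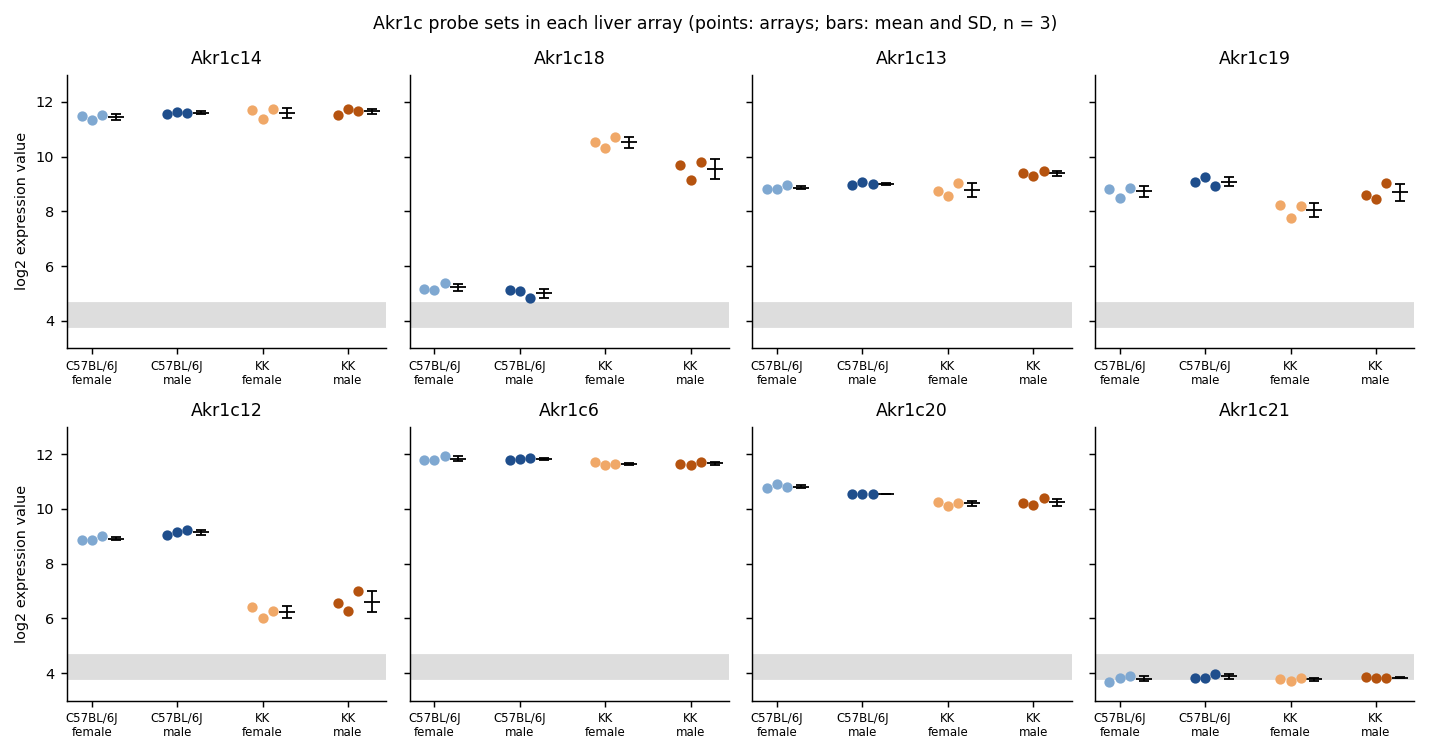
Log2 expression value of each Akr1c probe set (1 panel per gene, in chromosomal order) in each of the 12 arrays, with the mean and SD of the 3 mice of a group beside the points. The grey band is the range of Y-linked genes in female arrays, 3.79 to 4.66: Akr1c21 lies at its lower edge in all arrays, and Akr1c18 lies just above it in C57BL/6J but above 9 in KK.

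Akr1c18 was near the absent-transcript range in C57BL/6J and high in KK. It read 5.16, 5.14 and 5.37 in C57BL/6J females and 5.13, 5.08 and 4.82 in C57BL/6J males. In KK females it read 10.55, 10.31 and 10.72, and in KK males 9.69, 9.15 and 9.81. All 6 KK values thus lay above all 6 C57BL/6J values. The strain difference was 5.30 (SE 0.16, 39.4-fold, adjusted p = 1.7e-09) in females and 4.54 (SE 0.16, 23.3-fold, adjusted p = 1.78e-08) in males. Ranked among the increases of all 21212 probe sets it stood 3rd in females and 2nd in males.

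The 4 groups fell in the order KK females, KK males, C57BL/6J females and C57BL/6J males for Akr1c18. Both steps down to C57BL/6J females were called, and C57BL/6J males and females did not differ beyond their spread (-0.21, SE 0.16, adjusted p = 0.914). Because C57BL/6J values are so near the lower limit of the array, the fold is compressed there to an unknown degree. Cells of steroid-producing organs, in which Akr1c18 is well known, were looked for through 7 adrenal and gonad markers. None of the 7 was called between the strains (0 at an adjusted p under 0.05), and their mean value was 4.70 to 4.82 in KK females, 4.84 to 4.97 in KK males, 4.73 to 4.91 in C57BL/6J females and 4.77 to 4.90 in C57BL/6J males. Group means of Cyp11a1 (4.09 to 4.37), Star (4.34 to 4.56) and Cyp11b1 (3.96 to 4.03) lay within the range of absent transcripts, and those of Mc2r (3.78 to 3.84) at its lower edge. Those of Nr5a1 (6.21 to 6.5), Cyp11b2 (5.5 to 5.69) and Cyp21a1 (5.20 to 5.42) lay above it in every group.

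Akr1c12 changed in the opposite direction. It read 8.87, 8.88 and 9.0 in C57BL/6J females, and 9.03, 9.16 and 9.23 in C57BL/6J males. The KK values were 6.40, 6.00 and 6.28 in females and 6.55, 6.26 and 7.02 in males. The strains did not overlap. The KK values lay above the range of Y-linked genes in females (3.79 to 4.66). They lay near the group means of the adrenal and gonad marker Nr5a1 (6.21 to 6.5), so how much Akr1c12 transcript remained in KK is not shown. Akr1c12 fell by 2.69 (SE 0.16, 6.45-fold, adjusted p = 9.15e-07) in females and fell by 2.53 (SE 0.16, 5.76-fold, adjusted p = 1.72e-06) in males. Neither strain showed a called sex difference for Akr1c12, with differences of 0.22 in C57BL/6J (adjusted p = 0.891) and 0.39 in KK (adjusted p = 0.269).

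Akr1c13, whose start region is nearly the same as that of Akr1c12, did not fall with it. It read 8.83, 8.82 and 8.95 in C57BL/6J females and 8.97, 9.06 and 9.01 in C57BL/6J males. In KK females the values were 8.74, 8.55 and 9.04, spread around those of C57BL/6J females, and in KK males 9.42, 9.29 and 9.46, above all other arrays. The strain difference was -0.09 (SE 0.10, 95% interval -0.32 to 0.14, adjusted p = 0.798) in females, and 0.38 (SE 0.10, 0.15 to 0.60, adjusted p = 0.0617) in males, where it just missed the threshold. The male difference passed the threshold in several of the other fits, with quantile-normalized arrays at an adjusted p of 0.00943 and with loess at 0.0104.

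In C57BL/6J arrays the probe sets of Akr1c12 and Akr1c13 kept nearly the same distance: within an array, Akr1c12 minus Akr1c13 was 0.04 to 0.06 in females and 0.05 to 0.22 in males. In KK the same within-array value was -2.34, -2.55 and -2.76 in females and -2.87, -3.03 and -2.44 in males. The group means were 0.05 (SD 0.01, n = 3) and 0.13 (SD 0.08, n = 3) in C57BL/6J females and males, and -2.55 (SD 0.21, n = 3) and -2.78 (SD 0.30, n = 3) in KK females and males. Such a ratio shows that the signals of the probe sets changed unequally, and not which gene is the more abundant. The values of Akr1c12, Akr1c13 and other close relatives are uncertain as to the gene, since paralogs of this subfamily share much of their coding sequence. Which probes make up each set, and whether KK carries other bases beneath them, was not tested.

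**Figure D2:**
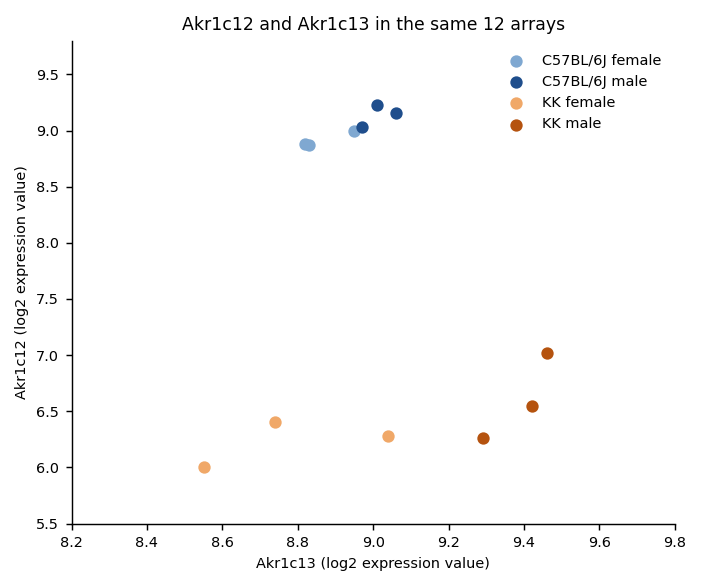
Log2 value of Akr1c12 (vertical axis) against that of Akr1c13 (horizontal axis) in the same array, 1 point per mouse, coloured by strain and sex. The 6 C57BL/6J points have Akr1c12 at 8.87 to 9.23, and the 6 KK points have it at 6.00 to 7.02 while Akr1c13 ranges from 8.82 to 9.06 in the former and from 8.55 to 9.46 in the latter.

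Akr1c19 fell modestly in KK. It read 8.82, 8.50 and 8.85 in C57BL/6J females against 8.23, 7.77 and 8.19 in KK females, with no overlap, and 9.09, 9.26 and 8.93 in C57BL/6J males against 8.59, 8.47 and 9.05 in KK males, where 1 KK male lay within the C57BL/6J range. The difference was -0.66 (SE 0.17, 1.58-fold, adjusted p = 0.0341) in females. It was -0.39 (SE 0.17, 95% interval -0.75 to -0.03, adjusted p = 0.259) in males, which was not called. The female call was lost without C57BL/6J female 1 (adjusted p = 0.115), C57BL/6J female 3 (0.119), KK female 2 (0.117) or KK female 3 (0.0533), while the call over both sexes (-0.53, adjusted p = 0.0114) held under every alternative run. The lowest group was KK females, called lower than C57BL/6J males as well (-1.03, adjusted p = 0.00257).

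Akr1c20 was lower in KK by a similar amount. It read 10.76, 10.90 and 10.79 in C57BL/6J females and 10.53 in all 3 C57BL/6J males. KK females read 10.27, 10.10 and 10.23, and KK males 10.20, 10.13 and 10.39. All 6 KK values lay below all 6 C57BL/6J values. Over both sexes the gene fell by 0.45 (SE 0.05, adjusted p = 0.000161). In females alone it fell by 0.62 (SE 0.08, 1.53-fold, adjusted p = 0.00042), and in males it differed by -0.29 (SE 0.08, 95% interval -0.46 to -0.12, adjusted p = 0.0519). The male difference was called in 6 of 20 alternative fits, over which its adjusted p ranged from 0.00491 to 0.182.

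Akr1c6 differed least among the genes that were called. It ranged from 11.77 to 11.94 over the C57BL/6J arrays and from 11.60 to 11.73 over the KK arrays, so that the strains did not overlap although they lay close. The difference was -0.18 (SE 0.05, 1.13-fold, adjusted p = 0.0263) over both sexes, and neither sex alone was called (-0.20, adjusted p = 0.104, in females and -0.15, adjusted p = 0.262, in males). The call over both sexes was lost after quantile (-0.12, adjusted p = 0.0711) and loess normalization (-0.13, adjusted p = 0.051). It was also lost without any one of C57BL/6J female 3, C57BL/6J males 2 and 3, KK females 2 and 3, and KK males 1 and 2, at adjusted p-values of 0.0553 to 0.0641.

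Akr1c14 and Akr1c21 were not called in any comparison. Akr1c14 lay between 11.33 and 11.74 in all 12 arrays, with a strain difference of 0.10 (95% interval -0.05 to 0.25, adjusted p = 0.472). Akr1c21 lay between 3.69 and 3.98, at the lower edge of the range of Y-linked genes in females, so its transcript was not detectable in these livers and its strain difference was -0.03 (95% interval -0.14 to 0.08). Kidney markers, which would travel with kidney RNA, gave no call between the strains either (0 of 5), and the mean of those 5 was 4.60 to 4.86 over the 12 arrays.

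Taking females alone, 4 of the 8 members were called between the strains, Akr1c18 higher and Akr1c12, Akr1c19 and Akr1c20 lower, where 6.5% of all probe sets were called (3.18% higher, 3.31% lower). In males 2 were called, Akr1c18 higher and Akr1c12 lower, where 5.15% of all were called (2.08% higher, 3.06% lower). By limma 6 members had an unadjusted p under 0.05 in males and 5 in females. The share of all probe sets at that unadjusted threshold was not counted, here or for the interaction below, so such counts have no background beside them. Whether the strain difference itself depends on sex was tested by the interaction, which called none of the 8 (0.141% of all probe sets were called). By limma 3 of the 8 had an unadjusted interaction p under 0.05: Akr1c18 (-0.76, SE 0.23), Akr1c13 (0.47, SE 0.15) and Akr1c20 (0.32, SE 0.11), at adjusted p-values of 0.503 to 0.632. The fewer calls in males are therefore not shown to be a difference between the sexes.

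**Figure D3:**
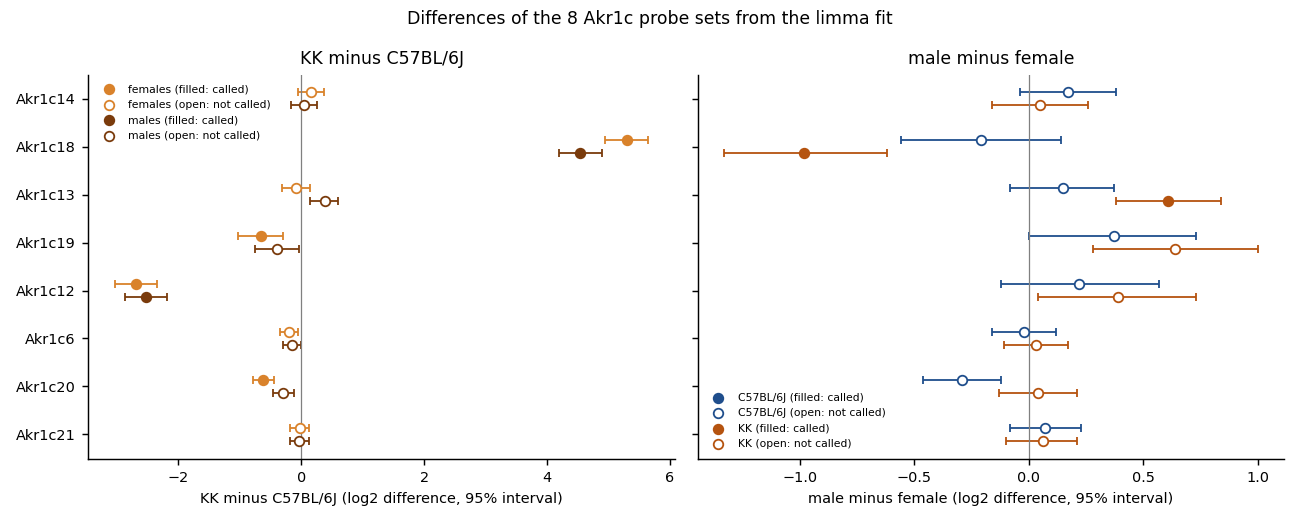
Log2 difference of each Akr1c probe set between the strains in each sex (left) and between the sexes in each strain (right), as points with 95% intervals from the limma fit; filled points were called. Akr1c18 and Akr1c12 lie on opposite sides of 0 in both sexes on the left, and only Akr1c18 and Akr1c13 are filled on the right, both in KK. The horizontal scales of the panels differ.

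The second comparison is between the sexes within a strain. In C57BL/6J limma called none of the 8 members (0 at an adjusted p under 0.05), where 1.03% of all probe sets were called (0.358% higher and 0.674% lower in males). By limma 2 members had an unadjusted p under 0.05, a threshold at which all probe sets were not counted. Quantile normalization gave 1 call, Akr1c20 (-0.31, adjusted p = 0.0376), and array weights, loess normalization and the other fits gave 0. As deposited, Akr1c20 differed by -0.29 (SE 0.08, adjusted p = 0.15), with all 3 males below all 3 females. In KK 2 members were called, Akr1c18 lower and Akr1c13 higher in males, where 2.17% of all probe sets were called (0.698% higher, 1.47% lower).

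Akr1c18 fell by 0.98 from KK females to KK males (SE 0.16, 1.97-fold, adjusted p = 0.00894), with no overlap. Akr1c13 was higher in KK males by 0.61 (SE 0.10, 1.53-fold, adjusted p = 0.0109), again with no overlap. Akr1c19 differed by 0.64 (SE 0.17, adjusted p = 0.0785) and Akr1c12 by 0.39 (SE 0.16, adjusted p = 0.269), both with the higher mean in males. With only the 6 KK arrays in the fit neither sex call held, at adjusted p-values of 0.0628 for Akr1c18 and 0.0849 for Akr1c13. The Akr1c13 call was also lost without KK female 1 (adjusted p = 0.0547) or KK male 1 (adjusted p = 0.0521), while Akr1c19 was called in 5 alternatives, at adjusted p-values of 0.0109 to 0.0444, and Akr1c12 with the interquartile range as a covariate (0.60, adjusted p = 0.0142).

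The sexes of KK also differed in markers of Kupffer cells, the resident macrophages of liver. Of the 6 markers 5 were called lower in KK males, where 1.47% of all probe sets were, with Vsig4 at -1.58 and Clec4f at -0.97. The median of the 6 was -1.14 between the sexes of KK and -0.46 between those of C57BL/6J, where none was called. The mean of the 6 was 7.36 to 7.80 in KK males and 8.26 to 9.05 in KK females, against 7.85 to 8.54 in C57BL/6J males and 8.48 to 8.61 in C57BL/6J females. The part of these cells in the sex difference of Akr1c18 was not tested. Between the strains 3 of the 6 were called lower in KK over both sexes, where 6.31% of all probe sets were: Marco (-0.74), Adgre1 (-0.59) and Clec4f (-0.41). The median of the 6 was 0.14 in females, with Timd4 at 0.66 and Vsig4 at 0.46 (neither called), and -0.64 in males. In females 1 of the 6 was called, Marco, lower in KK (-0.81, adjusted p = 0.0391), where 3.31% of all probe sets were lower. In males 1 was called, Clec4f, also lower (-0.75, adjusted p = 0.0144), where 3.06% of all probe sets were. Markers of sinusoidal endothelium (5 measured) and stellate cells (5) had medians of -0.26 and -0.41 between the sexes of KK. Of these Stab2 alone was called (-0.40). Over both sexes 2 endothelial markers were called lower in KK, Lyve1 (-0.74, adjusted p = 0.000143) and Oit3 (-0.26, adjusted p = 0.0244). No stellate cell or cholangiocyte marker was called between the strains over both sexes. In such whole-tissue samples fewer cells of a type and less RNA per cell cannot be told apart.

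Comparisons across both factors complete the order of the groups. Between KK females and C57BL/6J males 4 of the 8 members were called, where 7.03% of all probe sets were: Akr1c18 higher (5.51), and Akr1c12 (-2.91), Akr1c19 (-1.03) and Akr1c20 (-0.33, adjusted p = 0.0235) lower. The Akr1c20 call was lost without any 1 of the 3 C57BL/6J males or without KK female 2, at adjusted p-values of 0.0658 to 0.088. Between KK males and C57BL/6J females 4 were called, where 9.94% of all were: Akr1c18 (4.33) and Akr1c13 (0.52, adjusted p = 0.00714) higher, and Akr1c12 (-2.30) and Akr1c20 (-0.58) lower. For Akr1c13, KK males were therefore the highest group and were separated by a call from both groups of females, while C57BL/6J males, C57BL/6J females and KK females did not differ from each other by a call. For Akr1c19 the order was C57BL/6J males (9.09), C57BL/6J females (8.73), KK males (8.70) and KK females (8.06), in which the middle pair differed by -0.02 (SE 0.17, adjusted p = 0.958).

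The genes beside the cluster were compared between the strains in the same way. The 10 measured genes on each side were sought and 19 found, since only 9 lie before it on the chromosome. Their strain differences over both sexes ranged from -0.22 to 0.14, with a median size of 0.10 against 0.07 over all probe sets. Of the 19, 1 was called, where 11.7% of all probe sets were called and 6.31% were lower. It was Pitrm1, a mitochondrial protease gene 1961.6 kb past the cluster (-0.22, SE 0.06, adjusted p = 0.0232). The closest neighbour, Akr1e1, an aldo-keto reductase of another subfamily 4.6 kb past Akr1c21, differed by -0.20 (SE 0.07, adjusted p = 0.0967). Ucn3, the nearest measured gene on the other side at 103.6 kb, differed by -0.04, at group means of 4.56 to 4.71 near the absent-transcript range. Group means of Speer6-ps1, Calm5, Idi2, Adarb2, Calml3 and Tubal3 lay in or below that range, where a strain difference could hardly show. Past Akr1e1 the next measured gene, Klf6, lies 1274.9 kb from the cluster.

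**Figure D4:**
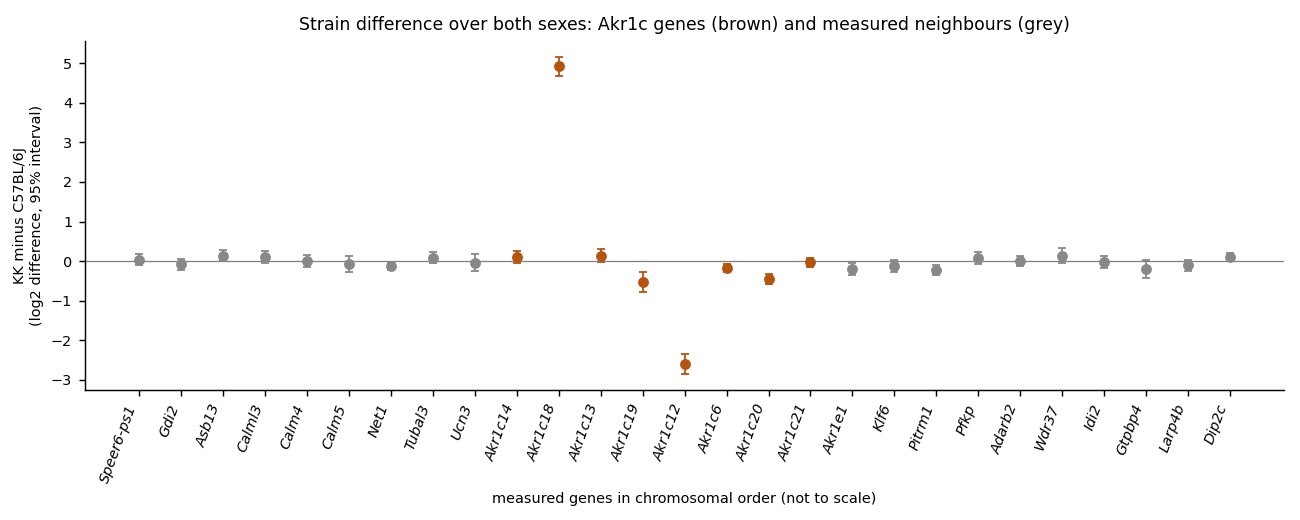
Strain difference over both sexes (vertical axis, log2 with 95% interval) of the 8 Akr1c genes, in brown, and of the 19 measured neighbours, in grey, in their order along chromosome 13 (not to scale). Akr1c18, at 4.92, and Akr1c12, at -2.61, stand out from flanking genes, which lie between -0.22 and 0.14. Several flanking genes read near the absent-transcript range.

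Along the cluster the sign of the strain difference over both sexes changed once in the fit of the deposited values. It was positive for Akr1c14 (0.10), Akr1c18 (4.92) and Akr1c13 (0.14), of which Akr1c18 alone was called. It was negative for Akr1c19 (-0.53), Akr1c12 (-2.61), Akr1c6 (-0.18), Akr1c20 (-0.45) and Akr1c21 (-0.03), and the 4 that were called lower are consecutive. The 95% intervals of Akr1c14 (-0.05 to 0.25), Akr1c13 (-0.02 to 0.3) and Akr1c21 (-0.14 to 0.08) include 0, so these signs are not settled. With array weights Akr1c21 was 0.02. The run of 4 rests in part on Akr1c6, whose call was lost in 9 of 19 alternatives. Akr1c18 and Akr1c12 are both on the minus strand, and the other 5 genes with a RefSeq window are on the plus strand.

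Other enzymes of carbonyl and steroid metabolism give the setting. Of 10 measured aldo-keto reductases outside the cluster, 1 was lower in KK and 9 were not called, where 6.31% of all probe sets were lower and 5.42% higher (median -0.04 against 0.01 over all probe sets). The one that fell was Akr1d1, the steroid 5beta-reductase of bile acid synthesis (-0.60, SE 0.09, adjusted p = 0.00055). Akr1b10 (-0.22, adjusted p = 0.0503), Akr1b8 (0.33, adjusted p = 0.0664) and Akr1e1 came next and were not called. Between the sexes none of the 10 was called in either strain, the smallest adjusted p being that of Akr1a1, the aldehyde reductase gene, in KK (0.24, adjusted p = 0.0523).

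Of 19 measured hydroxysteroid dehydrogenases and steroid reductases, 5 fell and 1 rose in KK over both sexes (median -0.06), where 6.31% of all probe sets fell and 5.42% rose. Hsd17b6, which oxidises androgens, fell by 0.92 (SE 0.12, adjusted p = 0.000265). Hsd3b7, which takes part in bile acid synthesis, fell by 0.43 (SE 0.04, adjusted p = 3.32e-05), and Hsd17b11 by 0.37 (SE 0.06, adjusted p = 0.0015). Hsd3b5, known as a male-biased liver gene, rose by 1.85 (SE 0.28), with means of 5.44 in C57BL/6J females, 9.22 in KK females, 10.38 in C57BL/6J males and 10.32 in KK males. By these means its rise over both sexes lay in females. In C57BL/6J males Hsd3b5 was higher than in females by 4.94 (adjusted p = 3.23e-05), and Hsd3b2 by 1.13 (adjusted p = 0.00692). These are the only 2 sex calls of that list in C57BL/6J. The strain by sex interaction called 1 of the 19, where 0.141% of all probe sets were called.

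Of 13 measured genes of prostaglandin synthesis and breakdown, another substrate class of the Akr1c enzymes, 4 fell and 0 rose in KK over both sexes (median -0.06), beside the same shares of all probe sets. Hpgd, whose product begins the breakdown of prostaglandins, fell by 0.86 (SE 0.06, adjusted p = 2.4e-06). The carbonyl reductase gene Cbr1 fell by 0.52 (adjusted p = 0.0168), Ptgr2, a prostaglandin reductase gene, by 0.33 (adjusted p = 0.026) and Hpgds, at a mean of 4.32 to 4.58 near the absent-transcript range, by 0.21 (adjusted p = 0.0444). In KK, Hpgd and Cbr1 were also lower in males than in females, by 1.29 and 1.22 (adjusted p = 1.16e-05 and 0.0039). Between the sexes of C57BL/6J none of the 13 was called, where 1.03% of all probe sets were. The falls over both sexes are means of the female and male differences. Taken alone, females had 1 of the 13 called lower in KK and males 2, where 3.31% and 3.06% of all probe sets were lower. The strain by sex interaction called 1 of the 13, where 0.141% of all probe sets were called.

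Genes of like pattern were sought for the members with a strain difference of at least 1 log2. Likeness was the root mean square difference between the centred values of the 12 arrays, over 18776 genes outside the cluster. The gene closest to Akr1c18 was the glutathione S-transferase gene Gstp3 on chromosome 19, at 0.41 log2, followed by Cap2 on chromosome 13 at 0.72 and Gbp11 on chromosome 5 at 1.06. For Akr1c12, the carboxylesterase gene Ces2a was nearest at 0.38 log2, then Pttg1 on chromosome 11 at 0.40 and the ribosomal protein gene Rpl3 on chromosome 15 at 0.43. The SD of the members' own values over the 12 arrays was 2.60 for Akr1c18 and 1.39 for Akr1c12. The strain difference of Ces2a was -2.04 in females and -1.84 in males, and that of Gstp3 4.87 and 5.29.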

How the data were processed

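RNA from 12 mouse livers was hybridised to Affymetrix whole-transcript arrays from 300 ng of total RNA after storage in RNAlater for 24 hours, per the labels' protocols. The deposited log2 values, 1 per Entrez-numbered probe set and array, were made by the authors with RMA and affy, per the submitters' processing notes (versions not given in the sources used here). RMA summarises many probes, so single probes, detection calls and background correction were not examined. Interquartile ranges of the arrays differed (2.64 to 2.97). The number of arrays, 3 per group, limits the precision.

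Probe sets were named through the platform table, 18786 of 21212 with exactly 1 symbol, and placed through RefSeq (GRCm38.p6), which also gave the promoter windows. All 12 arrays were fitted together with limma 3.58.1 in R 4.3.3 (lmFit, eBayes; 1 mean per strain and sex; 11.99 total degrees of freedom), without a filter, in 8 comparisons. Tests were two-sided, with Benjamini-Hochberg adjustment over all 21212 probe sets. P-values measure the spread between these mice. The smallest SD of the difference between any 2 arrays was 0.178 log2, so no array was a copy of another. The pipeline was tested on simulated data. Alternatives were quantile or loess normalization, a filter on low values, a prior with trend and robust fit, weights per array, replicate number as block, interquartile range as covariate, a fit of only the 2 groups concerned, and leaving out each array in turn.

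The members, lists and rules were chosen with earlier results of these data known. The rule named all 8 members; from each list up to 4 genes with the smallest adjusted p between strains and up to 2 between sexes; called neighbours; and the 3 genes of most like pattern. The remaining adrenal and gonad markers and uncalled neighbours were named after their values were seen. Not every gene that the rule allows is named, and no gene of the stellate cell, cholangiocyte, kidney or exocrine pancreas marker lists is.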

Additional observations from a re-analysis of the deposited data

How the results depend on the processing

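A total of 20 alternatives were run, 12 of which left out 1 array. Of the 21 member differences that were called, 16 kept their direction and call in each of them, and none turned sign. They include Akr1c18 and Akr1c12 in both strain comparisons within a sex, and Akr1c20 in females. All turns of sign were of values not called either way. With array weights these were Akr1c21 (0.02 over both sexes, 0.05 in females), Akr1c13 (0.03 in females) and Akr1c14 (-0.03 in males) between the strains, and Akr1c14 (-0.08) and Akr1c20 (-0.01) between the sexes of KK. For KK females against C57BL/6J males Akr1c14 was 0.04 after quantile, 0.03 after loess and 0.05 with array weights. For KK males against C57BL/6J females Akr1c19 was 0.04, 0.03 and, with the interquartile range as a covariate, 0.13, and Akr1c21 was 0 after loess; its interaction was 0.02 with the covariate. Without 1 array, the differences ranged as follows: Akr1c13 from -0.22 to 0.02 and Akr1c21 from -0.08 to 0.02 between strains in females; Akr1c14 from -0.01 to 0.10 and Akr1c21 from -0.07 to 0.01 in males. Between the sexes Akr1c6 ranged from -0.04 to 0.03 in C57BL/6J and from 0 to 0.06 in KK, where Akr1c14 ranged from -0.06 to 0.12 and Akr1c20 from -0.04 to 0.09. The interaction ranged from -0.04 to 0.34 for Akr1c12 and from -0.05 to 0.04 for Akr1c21. Akr1c14 in KK females against C57BL/6J males ranged from -0.08 to 0.10. In KK males against C57BL/6J females Akr1c19 ranged from -0.20 to 0.10 and Akr1c21 from -0.02 to 0.07.

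The number of members called between strains in males, 2, was 4 with only probe sets above the median, 5 with array weights, 4 with the covariate, and 2 to 4 without 1 array (4 without KK female 2). Between the sexes of C57BL/6J it was 1 after quantile normalization. Between those of KK, 2 became 4 with the covariate, 0 with only the KK arrays and 1 to 2 without 1 array (1 without KK female 1 or KK male 1). The replicate number as a block added 1 call between strains in males, Akr1c13 (0.38, adjusted p = 0.0311). Of 18 same-numbered pairs of arrays from different groups, 10 deviated together at a correlation over 0.1. Their correlations ranged from -0.36 to 0.48. Those of different-numbered pairs ranged from -0.51 to 0.48, and how many of them passed 0.1 was not counted. In deviation from the group mean, 8 of the 12 arrays were closest to an array of their own number. With the block 1765 probe sets were called for strain in females, so a shared effect of the number is possible. The number was not taken as a pairing because the labels give no shared litter or day for it. Of all probe sets, the count for strain in females (1378) was 2329 with the covariate and 905 to 1412 without 1 array, lowest without KK female 1. In males (1092) it was 2423 with array weights, 1673 with the covariate and 662 to 1163 without 1 array, lowest without KK male 1, with 711 without C57BL/6J male 3. For sex in C57BL/6J (219) it was 363, 392 and 142 to 225, lowest without C57BL/6J male 3. For sex in KK (460) it was 2058 with array weights, 190 with only the KK arrays and 160 to 512 without 1 array, lowest without KK female 1, with 201 without KK male 1 and 193 without KK male 2. The interaction (30) had 77 with array weights and 19 to 35 without 1 array, 19 without C57BL/6J male 3 or KK male 2. KK females against C57BL/6J males (1491) had 2450 with the covariate and 921 to 1522 without 1 array, lowest without KK female 1. KK males against C57BL/6J females (2108) had 4586 with array weights and 1393 to 2145, lowest without C57BL/6J female 3. Apart from settings that test fewer arrays or probe sets, the cause of these shifts was not tested. Signal near the lower limit of the array bounds what can be said of Akr1c21 in all groups and of Akr1c18 in C57BL/6J.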

Other observations

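Of 14 further carbonyl and retinal reductase genes measured, 4 fell and 0 rose in KK over both sexes (median -0.10), where 6.31% of all probe sets fell. Rdh10, a retinol dehydrogenase gene, fell by 0.57 (SE 0.06, adjusted p = 7.67e-05), and its 6 KK values lay below its 6 C57BL/6J values. Dhrs9 fell by 0.57 (adjusted p = 0.0131), Rdh9 by 0.40 (adjusted p = 0.0178) and Dhrs1 by 0.21 (adjusted p = 0.0115). Between the sexes 2 of the 14 were lower in males of each strain: Dhrs7 by 0.75 in C57BL/6J and by 0.72 in KK, and Rdh9 by 0.75 and 0.79.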
